A study of Mus musculus with 19 samples.

Results

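The cadherin superfamily was examined in the messenger RNA of mouse embryonic stem (ES) cells that carried or lacked Trim71 and Lin28a. Members were the classical and atypical cadherin (Cdh), protocadherin (Pcdh), Fat, Celsr and Dchs symbols of the deposited table. They numbered 53 of 21685 symbols, and 18 of them reached a normalised value of 10, which is 3.32 on the log2 scale, in at least 4 libraries. All levels below are the deposited log2 values, and all differences are log2 differences on that scale. Male C57BL/6 ES cells were grown with fetal calf serum (FCS) and leukaemia inhibitory factor (LIF) and were sorted with magnetic beads for SSEA-1, a surface sugar of undifferentiated mouse ES cells. In each genotype name the Trim71 state stands before the Lin28a state. WT-WT cells (Trim fl/fl, Lin28a fl/fl) gave 4 libraries and KO-WT cells (Trim -/-, Lin28a fl/fl) gave 4 that could be used. WT-KO cells (Trim fl/fl, Lin28a -/-) gave 5 libraries and KO-KO cells (Trim -/-, Lin28a -/-) gave 5. Per the labels, the Trim71 mutation was induced in conditional cells with 500 nM 4-hydroxytamoxifen (4-OHT) for 2 days, and culture went on for at least 7 days before harvest; the labels do not say whether Trim71-intact cells were treated as well. Lin28a-intact libraries came from clones 1 and E3 and Lin28a-null libraries from clones 1-4 and C1, so the Lin28a genotype and the clone cannot be told apart. Libraries of a genotype differ in harvest day and in part in clone, and no label says that they are separate derivations, so p-values measure the spread between these libraries.

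Cadherins are transmembrane proteins that join cells through calcium-dependent repeats outside the membrane. Classical cadherins bind the same cadherin on the neighbouring cell and are tied to actin by catenins; E-cadherin is the main one of ES cell colonies and of the early embryo. Protocadherins lack the catenin-binding tail and serve recognition between cells, most of all in neurons, where the clustered genes are used in different combinations from cell to cell. Fat and Dchs proteins are giant cadherins linked to tissue growth control through the Hippo pathway. The Celsr proteins, relatives of fly Flamingo, are core components of planar cell polarity. TRIM71 is an RNA-binding ubiquitin ligase. LIN28A binds precursors of the microRNA let-7 and blocks their maturation.

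The labels and the cell type were checked in the same libraries. Trim71 lay between 8.77 and 9.55 in the Trim71-null libraries and at 10.04 or above in the others, and Lin28a between 8.21 and 8.57 in the Lin28a-null libraries and between 9.74 and 10.26 in the others. Of 10 ES cell markers, 9 passed the filter; Fut4, an enzyme that makes the SSEA-1 sugar, did not and lay between 2.66 and 3.41. Nanog averaged 12.26 ± 0.0768 (SD, n = 4) in WT-WT and 13.20 ± 0.0943 (n = 5) in KO-KO. The depth of each library is not given by the table, and KO-WT replicate 5 was left out because each of its values is the average of the remaining KO-WT libraries.

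E-cadherin was the most abundant member per transcript length. With log2 levels expressed per kilobase of the longest coding transcript, WT-WT cells held Cdh1 at 9.42, then Fat1 at 6.34 and Cdh3 (P-cadherin) at 6.12. Cdh24 followed at 4.65, Celsr1 at 4.39, Pcdh1 at 3.78, Celsr3 at 3.63, Celsr2 at 3.61 and Pcdhgc3 at 3.48. Cdh2 (N-cadherin), the cadherin of mesenchymal and neural cells, was at 2.61 on the same scale and Cdh4 at 2.09. Fat2, Pcdhga11, Cdh15, Pcdhga12, Pcdh19, Pcdhga1 and Cdh23 lay lower, down to 0.00 per kilobase for Cdh23. By class, 5 of 5 type I cadherins passed the filter, 1 of 10 type II cadherins (Cdh24), 1 of 2 atypical cadherins (Cdh23), 3 of 3 Celsr genes, 2 of 4 Fat or Dchs genes, 2 of 6 non-clustered protocadherins and 4 of 23 clustered protocadherins. Fat3 and Fat4 were not analysed here. Dchs1, a ligand of Fat proteins, lay between 2.41 and 2.77 and Dchs2 between 1.32 and 1.76 in all 18 libraries, below the filter. At the edge of the filter, Pcdhga1 passed with 4 libraries, while Pcdhgc5 reached 3.32 after rounding and Pcdhgb7 3.31 without passing in any library. The 4 libraries that carried Pcdhga1 past the filter were all Lin28a-null, so its higher level in those cells is in part fixed by the filter.

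**Figure D1:**
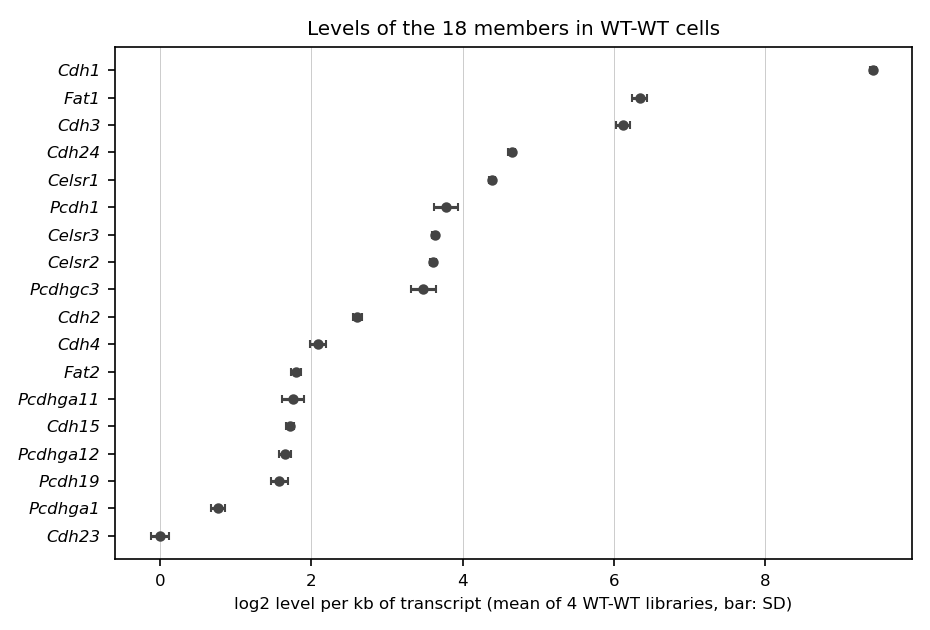
Points give the mean log2 level per kilobase of the longest coding transcript over 4 WT-WT libraries for each of the 18 members, and bars the SD between libraries. Cdh1 stands at 9.42, above Fat1 at 6.34 and Cdh3 at 6.12, and Cdh23 is lowest at 0.00.

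After Trim71 loss 4 or 5 of the 18 members were called, and after Lin28a loss 10. With Lin28a intact, 4 passed the test after Trim71 loss (limma, Benjamini-Hochberg adjusted p under 0.05 over 14988 genes), 2 higher and 2 lower; 11.2% of all tested genes were called, 4.74% higher and 6.43% lower. With Lin28a null, 5 passed, 4 higher and 1 lower, against 8.38% of all genes, 4.26% higher and 4.12% lower. After Lin28a loss 10 members passed with Trim71 intact, 8 higher and 2 lower, and 42.4% of all genes were called. With Trim71 null 10 passed as well, 8 higher and 2 lower, against 42.8%. Between KO-KO and WT-WT cells, which differ in both genes, 14 passed, 11 higher and 3 lower, against 45.6% of all genes, 21% higher and 24.6% lower. Among all genes, 20.3% and 20.8% were called higher in the first and the second Lin28a comparison and 22% were called lower in each. The members' median difference was 0.174 and 0.176 in these comparisons, beside -0.008 and -0.001 over all genes, and 0.026 in each Trim71 comparison, beside -0.005 and -0.009. Since the filter in part fixed the direction of Pcdhga1, the same was computed without it: 10 and 9 of 17 members passed in the Lin28a comparisons, 8 and 7 of them higher, with medians of 0.159 and 0.153, and 13 of 17 between KO-KO and WT-WT, 10 of them higher. These comparisons share libraries with one another, so they are not independent of each other. Cdh24, Pcdhga11 and Pcdhgc3 were called in none of the 6 comparisons made, the interaction included. RNA was taken from whole sorted populations, in which fewer cells of a kind and less RNA per cell cannot be told apart.

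**Figure D2:**
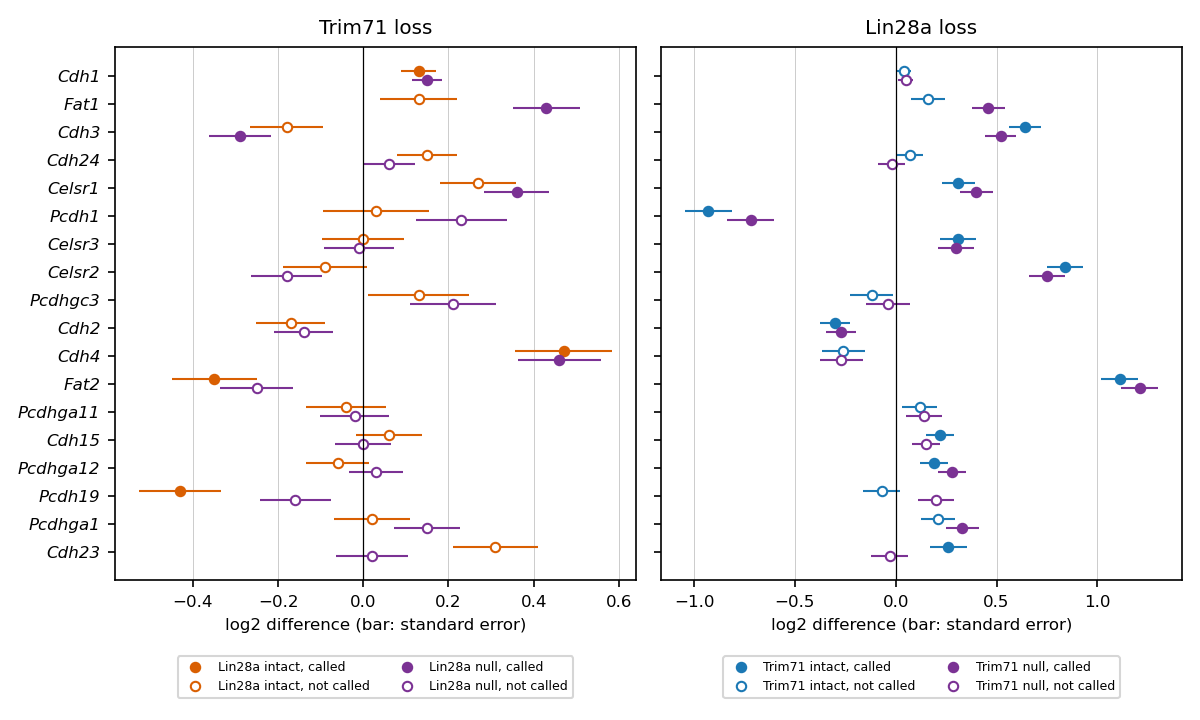
Log2 differences (points) with standard errors (bars) of the 18 members after Trim71 loss (left) and after Lin28a loss (right), each in both states of the other gene; filled points are called at an adjusted p under 0.05. The right-hand axis is the wider one: Fat2 reaches 1.21 and Pcdh1 -0.93 after Lin28a loss, while no difference after Trim71 loss exceeds 0.47 in size.

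Markers of other cell types moved with the Lin28a genotype. The 8 simple epithelium markers, all past the filter, had a summed log2 level of 12.93 to 13.23 in the Lin28a-intact libraries and 12.01 to 12.13 in the Lin28a-null ones. Krt8, a keratin of simple epithelia, averaged 10.96 ± 0.261 (SD, n = 4) in WT-WT and 6.74 ± 0.17 (n = 5) in WT-KO. Primitive endoderm markers (8 measured, 6 past the filter) summed to 8.10 to 8.94 in Lin28a-intact and 6.47 to 7.10 in Lin28a-null libraries; of these, Sox17 and Foxa2 stayed below the filter. Trophectoderm markers (6 of 8 past the filter) summed to 10.31 to 10.51 and 9.67 to 10.17, with Cdx2 at 1.94 to 3.13 and Elf5 at 0.77 to 1.02. ES cell markers summed to 15.27 to 15.47 and 15.59 to 15.76. Mesenchyme markers (5 of 10 in the table) summed to 12.02 to 12.30 and 12.55 to 12.80. The sum follows the most abundant genes, and Col1a2, a fibrillar collagen, went the other way, at a mean of 4.69 in WT-WT and 2.81 in WT-KO. Of 4 mesenchyme markers tested, 1 was called higher and 2 lower in each Lin28a comparison, beside 42.4% and 42.8% of all genes. Their median differences were -0.366 and -0.327. Primed epiblast markers (6 of 8 in the table, 5 past the filter) summed to 10.71 to 11.23 in Lin28a-intact and 10.28 to 10.79 in Lin28a-null libraries, which overlapped. Of the 5 tested, 4 were called lower and none higher in each Lin28a comparison (limma), beside 42.4% and 42.8% of all genes. The median differences of this list were -0.417 and -0.520. Some sums also moved with Trim71. Neural markers (8 in the table, 6 past the filter) summed to 9.65 to 9.79 in WT-WT and 9.42 to 9.51 in KO-WT, and to 9.80 to 10.01 in WT-KO and 9.65 to 9.70 in KO-KO, without overlap in either Lin28a state. ES cell markers were higher without overlap in KO-WT (15.37 to 15.47) than in WT-WT (15.27 to 15.34). With Lin28a null, trophectoderm markers were lower without overlap in KO-KO (9.67 to 9.91) than in WT-KO (9.92 to 10.17), and so were mesoderm markers (2 of 6 past the filter; 5.37 to 5.48 against 5.55 to 5.67). The epithelial sums of the Trim71 states overlapped. Of the 8 epithelial markers, 3 were called higher and none lower after Trim71 loss with Lin28a intact (limma), beside 11.2% of all genes. With Lin28a null 1 was called higher and none lower, beside 8.38%. Their median differences were 0.132 and 0.165, beside -0.005 and -0.009 over all genes. The part of these cell types in the members' differences, after loss of either gene, was not tested.

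Among the classical cadherins, Cdh1 and Cdh4 rose with Trim71 loss, Cdh3 rose with Lin28a loss and Cdh2 fell with Lin28a loss. Cdh1 read 11.52, 11.61, 11.55 and 11.58 in the WT-WT libraries, 11.64, 11.69, 11.73 and 11.73 in KO-WT, 11.61, 11.60, 11.60, 11.60 and 11.58 in WT-KO, and 11.78, 11.80, 11.71, 11.73 and 11.72 in KO-KO. Each Trim71-null group lay above its Trim71-intact counterpart without overlap, while the Lin28a states overlapped. Cdh1 rose by 0.13 (SE 0.041, adjusted p = 0.0468) after Trim71 loss with Lin28a intact and by 0.15 (SE 0.0351, adjusted p = 0.0159) with Lin28a null, a 1.1-fold and a 1.11-fold difference. In the Lin28a comparisons the Cdh1 difference was 0.04 (SE 0.0379, adjusted p = 0.46) and 0.05 (SE 0.0379, adjusted p = 0.291). The call with Lin28a intact was lost in 12 of 18 fits that each left out 1 library, at adjusted p from 0.0513 to 0.145 and differences from 0.12 to 0.16: those without any 1 of WT-WT replicates 1 to 4, KO-WT replicates 2 to 4, WT-KO replicates 1, 2 and 5, and KO-KO replicates 1 and 5. With Lin28a null it was lost without WT-KO replicate 5 (0.14, adjusted p = 0.05, just above the threshold before rounding), KO-KO replicate 1 (0.13, adjusted p = 0.0646) or KO-KO replicate 2 (0.13, adjusted p = 0.0634). Both calls also failed on harvest days shared by all 4 genotypes (limma, 0.14, adjusted p = 0.0815, and 0.12, adjusted p = 0.177). They failed with E3 and C1 as the only clones (0.11 at adjusted p = 0.451 and 0.14 at 0.349). With the 2 compared genotypes alone, the Lin28a-intact call was lost (0.14, adjusted p = 0.211) and the other kept (0.15, adjusted p = 0.0351). Clones 1 and 1-4 gave sizes of 0.18 and 0.15, with KO-WT replicate 4 the only KO-WT library.

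Cdh4 encodes R-cadherin, known from the developing retina and brain. It read 4.61, 4.85, 4.79 and 4.79 in WT-WT, 5.04, 5.21, 5.32 and 5.35 in KO-WT, 4.73, 4.59, 4.36, 4.30 and 4.54 in WT-KO, and 4.88, 5.07, 5.04, 5.05 and 4.78 in KO-KO. The Trim71-null libraries lay above the Trim71-intact ones in both Lin28a states, and KO-WT was the highest group. Cdh4 rose 1.38-fold in each state, by 0.47 (SE 0.114, adjusted p = 0.0199) with Lin28a intact and by 0.46 (SE 0.0979, adjusted p = 0.00848) with Lin28a null. In clones E3 and C1 alone the differences were 0.36 (limma, adjusted p = 0.203) and 0.64 (adjusted p = 0.0226). Clones 1 and 1-4 alone gave 0.67 and 0.19. These are sizes only, since KO-WT replicate 4 is the only KO-WT library in that subset, and no call is read from them. With only the 2 genotypes compared, the call with Lin28a intact was lost (0.48, adjusted p = 0.103). In the Lin28a comparisons the Cdh4 difference was -0.26 (SE 0.106, adjusted p = 0.0583) with Trim71 intact and -0.27 (SE 0.106, adjusted p = 0.0513) with Trim71 null, just above the threshold. Both were called lower with a correction for transcript GC content and length (-0.31, adjusted p = 0.0206, and -0.34, adjusted p = 0.0107), on the days with all 4 genotypes (-0.41, adjusted p = 0.0113, and -0.34, adjusted p = 0.031) and without the term for harvest day, the replicate block (adjusted p = 0.0194 and 0.0162). Without WT-WT replicate 3 or 4 or KO-WT replicate 3 or 4, the adjusted p with Lin28a intact was 0.0508, 0.0549, 0.0735 and 0.0587, in that order, with differences from 0.41 to 0.48.

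**Figure D3:**
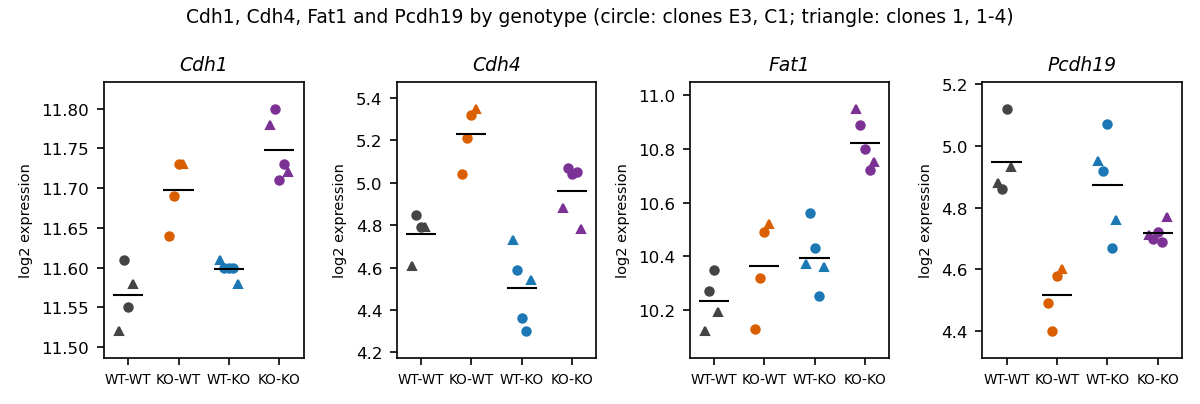
Log2 expression of Cdh1, Cdh4, Fat1 and Pcdh19 in each of the 18 libraries by genotype; horizontal lines are group means, circles are clones E3 and C1, triangles clones 1 and 1-4, and each panel has its own axis, which does not start at 0. The Cdh1 libraries of KO-KO lie between 11.71 and 11.80, all above the WT-KO libraries at 11.58 to 11.61.

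Cdh3 encodes P-cadherin, a classical cadherin named for the placenta and found in many epithelia; on chromosome 8 (GRCm38, plus strand) it lies from 106510891 to 106557297, upstream of Cdh1 at 106603351 to 106670246. Cdh3 read 8.31, 8.27, 8.11 and 8.31 in WT-WT, 8.18, 8.18, 7.97 and 7.95 in KO-WT, 8.92, 8.80, 8.87, 8.91 and 8.94 in WT-KO, and 8.50, 8.56, 8.47, 8.82 and 8.61 in KO-KO. All Lin28a-null libraries stood above all Lin28a-intact ones. Cdh3 rose by 0.64 (SE 0.0783, adjusted p = 9.55e-06), 1.55-fold, after Lin28a loss with Trim71 intact and by 0.52 (SE 0.0783, adjusted p = 6.76e-05), 1.44-fold, with Trim71 null. After Trim71 loss Cdh3 fell by 0.29 (SE 0.0724, adjusted p = 0.02) in Lin28a-null cells, and was lower in 5 of 5 same-day pairs. The difference was -0.18 (SE 0.0846, adjusted p = 0.17) in Lin28a-intact cells. The call in Lin28a-null cells was lost without WT-KO replicate 1, 4 or 5 or KO-KO replicate 1, 2 or 3, at adjusted p from 0.0543 to 0.0776 and differences from -0.29 to -0.25. In Lin28a-null cells the neighbouring genes Cdh3 and Cdh1 were thus called in opposite directions after Trim71 loss in the fit of all 18 libraries. On harvest days shared by all 4 genotypes neither call held (limma, -0.27, adjusted p = 0.2, for Cdh3 and 0.12, adjusted p = 0.177, for Cdh1). Nor did either hold with E3 and C1 as the only clones (-0.24 at adjusted p = 0.352 and 0.14 at 0.349). Both held with the 2 compared genotypes alone (adjusted p = 0.0154 and 0.0351).

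Cdh2 encodes N-cadherin, the classical cadherin of mesoderm, mesenchyme and neurons. It read 4.86, 4.96, 4.81 and 4.91 in WT-WT, 4.75, 4.66, 4.73 and 4.72 in KO-WT, 4.65, 4.62, 4.66, 4.53 and 4.46 in WT-KO, and 4.40, 4.38, 4.35, 4.56 and 4.55 in KO-KO. The WT-WT libraries were the highest and the KO-KO libraries, which overlapped those of WT-KO, the lowest. Cdh2 fell by 0.30 (SE 0.0753, adjusted p = 0.00477) after Lin28a loss with Trim71 intact, by 0.27 (SE 0.0753, adjusted p = 0.0097) with Trim71 null and by 0.43 (SE 0.0753, adjusted p = 0.000246) between KO-KO and WT-WT. The first 2 calls were lost in clones E3 and C1 alone (limma, -0.28 in each, adjusted p = 0.139 and 0.0712). In clones 1 and 1-4 alone these differences were -0.32 and -0.24, given as sizes only, as for Cdh4. The call with Trim71 null was also lost on the days with all 4 genotypes (-0.22, adjusted p = 0.111), and Cdh2 stayed called between KO-KO and WT-WT there. After Trim71 loss its difference was -0.17 (SE 0.0814, adjusted p = 0.182) with Lin28a intact and -0.14 (SE 0.0697, adjusted p = 0.263) with Lin28a null. Cdh15, or M-cadherin of muscle, was near the filter at 3.38 to 3.77 and was called higher in WT-KO than in WT-WT. That call was lost without WT-WT replicate 1 or 2 or WT-KO replicate 3 (adjusted p from 0.0641 to 0.0717), on the days with all 4 genotypes (0.21, adjusted p = 0.0956) and in each pair of clones alone (adjusted p = 0.151 and 0.321). Cdh24, the only type II cadherin past the filter, stayed within 6.41 to 6.69 in all 18 libraries. Its KO-WT libraries (6.57 to 6.64) lay above those of WT-WT (6.41 to 6.51) without overlap, by 0.15 (limma, adjusted p = 0.167). Without the term for harvest day Cdh24 was called higher there (adjusted p = 0.0419) and in KO-KO against WT-WT (adjusted p = 0.0411). Cdh23, the atypical cadherin of the tip links of inner ear hair cells, lay between 3.33 and 3.96 and was called higher in WT-KO than in WT-WT. Its call was lost without WT-WT replicate 1 or 4 or WT-KO replicate 3 or 5 (adjusted p from 0.0816 to 0.138), with the GC and length correction (0.20, adjusted p = 0.0629), on the days with all 4 genotypes (0.26, adjusted p = 0.0974) and in each pair of clones alone (adjusted p = 0.429 and 0.0682).

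Of the giant cadherins, Fat2 rose most of all members after Lin28a loss, and Fat1 was highest where both genes were absent. Fat2, whose protein is known from migrating epithelia and from cerebellar granule cells, read 5.70, 5.57, 5.72 and 5.67 in WT-WT, 5.38, 5.36, 5.24 and 5.27 in KO-WT, 6.64, 6.55, 6.95, 6.89 and 6.85 in WT-KO, and 6.62, 6.68, 6.41, 6.43 and 6.49 in KO-KO. The lowest Lin28a-null library stood well above the highest Lin28a-intact one, and KO-WT lay below WT-WT without overlap. Fat2 rose by 1.11 (SE 0.0923, adjusted p = 1.37e-07), 2.16-fold, from WT-WT to WT-KO, that is with Trim71 intact, and by 1.21 (SE 0.0923, adjusted p = 4.69e-08), 2.32-fold, with Trim71 null. It fell by 0.35 (SE 0.0997, adjusted p = 0.0349) after Trim71 loss with Lin28a intact; with Lin28a null the difference was -0.25 (SE 0.0854, adjusted p = 0.0821). The fall was lost without WT-WT replicate 1, 3 or 4, KO-WT replicate 2, 3 or 4 or WT-KO replicate 1, at adjusted p from 0.0544 to 0.113 and differences from -0.37 to -0.32. The GC and length correction also ended it (-0.26, adjusted p = 0.139). The fall with Lin28a null was called with that correction (-0.30, adjusted p = 0.0328), on the days with all 4 genotypes (-0.45, adjusted p = 0.0221) and without WT-KO replicate 2 (-0.34, adjusted p = 0.0174). Across genes, the correlation of the difference with GC content (Spearman) was 0.515 with Lin28a intact and 0.009 with Lin28a null; genes are not independent replicates.

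Fat1, whose protein acts on actin at cell contacts and on Hippo signalling, read 10.12, 10.27, 10.35 and 10.19 in WT-WT, 10.13, 10.32, 10.49 and 10.52 in KO-WT, 10.37, 10.56, 10.43, 10.25 and 10.36 in WT-KO, and 10.95, 10.89, 10.80, 10.72 and 10.75 in KO-KO. The KO-KO libraries stood above all others, and the remaining 3 groups overlapped. Fat1 rose by 0.43 (SE 0.0777, adjusted p = 0.00294), 1.35-fold, after Trim71 loss in Lin28a-null cells, in 5 of 5 same-day pairs, and by 0.46 (SE 0.084, adjusted p = 0.000423) after Lin28a loss in Trim71-null cells. With the other gene intact, the difference was 0.13 (SE 0.0908, adjusted p = 0.356) after Trim71 loss and 0.16 (SE 0.084, adjusted p = 0.138) after Lin28a loss. The interaction, which tests whether the effect of Trim71 loss differs between the Lin28a states, was 0.30 (SE 0.12) with an unadjusted p of 0.0244 and an adjusted p of 0.286, so a difference between the states was not shown. With the GC and length correction Fat1 was called in KO-WT against WT-WT (0.24, adjusted p = 0.0257) and in WT-KO against WT-WT (0.15, adjusted p = 0.0362). An annotated antisense gene overlaps 276 bases of Fat1, and strand use in counting is not given in the sources used here, so reads of that stretch cannot be told apart.

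All 3 Celsr genes rose after Lin28a loss in both Trim71 states. Celsr2 read 7.01, 7.05, 6.96 and 7.04 in WT-WT, 6.75, 6.88, 7.17 and 6.90 in KO-WT, 7.69, 7.93, 7.95, 7.75 and 7.96 in WT-KO, and 7.84, 7.78, 7.59, 7.59 and 7.57 in KO-KO. All Lin28a-null libraries stood above all Lin28a-intact ones. Celsr2 rose by 0.84 (SE 0.091, adjusted p = 2.48e-06), 1.79-fold, with Trim71 intact and by 0.75 (SE 0.091, adjusted p = 8.11e-06), 1.68-fold, with Trim71 null. Its differences after Trim71 loss were -0.09 (SE 0.0983, adjusted p = 0.564) and -0.18 (SE 0.0842, adjusted p = 0.204).

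Celsr1 read 7.77, 7.82, 7.84 and 7.88 in WT-WT, 7.87, 8.19, 8.22 and 8.10 in KO-WT, 8.17, 8.17, 8.22, 7.98 and 8.15 in WT-KO, and 8.52, 8.69, 8.33, 8.52 and 8.43 in KO-KO. KO-WT replicate 1 alone of the other groups' libraries fell within the WT-WT range, KO-WT and WT-KO covered nearly the same range, and every KO-KO library stood above all others. Celsr1 rose by 0.31 (SE 0.0829, adjusted p = 0.00703) and 0.40 (SE 0.0829, adjusted p = 0.00102) after Lin28a loss with Trim71 intact and null. In clones E3 and C1 alone the first of these was lost (limma, 0.29, adjusted p = 0.174) and the second kept (0.42, adjusted p = 0.0257). After Trim71 loss Celsr1 rose by 0.36 (SE 0.0767, adjusted p = 0.00814) with Lin28a null. That call was lost on the days with all 4 genotypes (limma, 0.31, adjusted p = 0.0768). It was also lost where E3 and C1 were the only clones kept (0.39, adjusted p = 0.17). Among libraries of clones 1 and 1-4 this Lin28a-null difference was 0.32, given as a size only, as for Cdh4. With Lin28a intact the difference was 0.27 (SE 0.0896, adjusted p = 0.0633), which passed the test without KO-WT replicate 1 (0.35, adjusted p = 0.013), WT-KO replicate 4 (0.27, adjusted p = 0.0457), KO-KO replicate 2 (0.3, adjusted p = 0.0319) or KO-KO replicate 3 (0.27, adjusted p = 0.0489), and with the GC and length correction (0.27, adjusted p = 0.025). The difference between KO-KO and WT-WT was 0.67 (SE 0.0829, adjusted p = 8.92e-06), a 1.59-fold rise.

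Celsr3, needed for axon guidance in the forebrain, read 7.13, 7.18, 7.14 and 7.19 in WT-WT, 6.90, 7.20, 7.37 and 7.17 in KO-WT, 7.43, 7.66, 7.52, 7.30 and 7.43 in WT-KO, and 7.52, 7.53, 7.34, 7.43 and 7.46 in KO-KO. Most Lin28a-null libraries were the higher ones; KO-WT replicate 3 at 7.37 lay above WT-KO replicate 4 at 7.30 and KO-KO replicate 3 at 7.34, and no other Lin28a-intact library reached the Lin28a-null ones. Celsr3 rose by 0.31 (SE 0.0893, adjusted p = 0.0107) with Trim71 intact and by 0.30 (SE 0.0893, adjusted p = 0.0139) with Trim71 null, and its differences after Trim71 loss were 0.00 (SE 0.0965, adjusted p = 0.993) and -0.01 (SE 0.0827, adjusted p = 0.95). Without KO-WT replicate 1 the second call was lost (0.17, adjusted p = 0.0859), and so it was with the GC and length correction (0.17, adjusted p = 0.0595). The second call was also lost on the days with all 4 genotypes (limma, 0.16, adjusted p = 0.163). In clones E3 and C1 alone neither call held (0.33, adjusted p = 0.158, and 0.27, adjusted p = 0.146). Clones 1 and 1-4 alone gave sizes of 0.28 and 0.32. KO-WT replicate 1 was the lowest KO-WT library for Cdh1, Cdh4, Fat1 and all 3 Celsr genes.

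**Figure D4:**
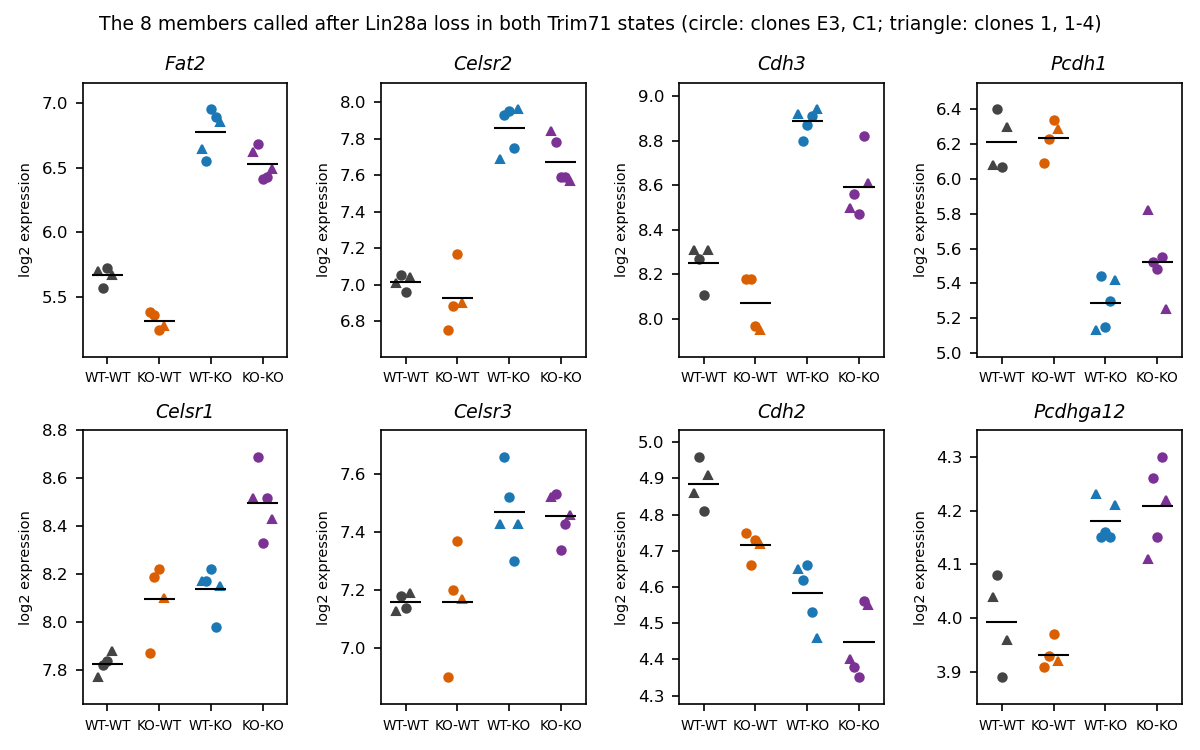
Log2 expression in each of the 18 libraries of the 8 members called after Lin28a loss in both Trim71 states; horizontal lines are group means, circles are clones E3 and C1, triangles clones 1 and 1-4, and each panel has its own axis, which does not start at 0. The WT-KO and KO-KO libraries of Fat2 lie between 6.41 and 6.95, above the WT-WT and KO-WT libraries at 5.24 to 5.72, and those of Pcdh1 at 5.13 to 5.82 lie below 6.07 to 6.40.

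The start regions of Celsr2 and Celsr3 are shown because these genes rose together after Lin28a loss. The RefSeq promoter table (GRCm38.p6) held 8 members, of which 6 entries ended within 500 bases of the gene start in the GENCODE M21 annotation; the entries for Fat1 and Fat2 lay 14760 and 24306 bases inside those genes and were not used. The 250 bases upstream of the start are printed 5′ to 3′ on the gene's strand, for Celsr2 from chr3:108415580-108415829 (minus strand) and for Celsr3 from chr9:108825795-108826044 (plus strand). Capitals mark the motifs searched on both strands: the E-box CACCTG or CAGGTG, which Snail and Zeb factors bind in the E-cadherin promoter, the GC box GGGCGG or CCGCCC, and the TATA box TATAAA or TTTATA.
Celsr2: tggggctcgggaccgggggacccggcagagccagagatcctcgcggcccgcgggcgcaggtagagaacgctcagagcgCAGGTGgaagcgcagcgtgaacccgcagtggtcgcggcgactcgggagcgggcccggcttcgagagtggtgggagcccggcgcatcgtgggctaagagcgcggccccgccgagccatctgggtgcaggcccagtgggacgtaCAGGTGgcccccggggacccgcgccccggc
Celsr3: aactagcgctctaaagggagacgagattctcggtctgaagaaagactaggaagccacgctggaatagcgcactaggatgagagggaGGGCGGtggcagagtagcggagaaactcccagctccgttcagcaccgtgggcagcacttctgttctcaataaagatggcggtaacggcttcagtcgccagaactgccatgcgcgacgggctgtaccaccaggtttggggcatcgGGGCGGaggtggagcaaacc
Celsr2 held 2 E-box matches and Celsr3 held 2 GC box matches. Of the 6 usable member windows, 1 held an E-box and 4 a GC box (Cdh15, Celsr3, Cdh24 and Pcdh19). Among 32851 promoter windows of 250 bases, 17.2% held the E-box, 32.7% the GC box and 12.4% the TATA box. The Celsr2 window had a GC content of 75.2% and that of Celsr3 58%, beside a median of 52.4%. A match describes the letters and does not show a bound site.

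The non-clustered protocadherins Pcdh1 and Pcdh19 each had a lower level, Pcdh1 after Lin28a loss and Pcdh19 after Trim71 loss. Pcdh1, an adhesion protein of airway epithelium, read 6.08, 6.40, 6.07 and 6.30 in WT-WT, 6.09, 6.23, 6.34 and 6.29 in KO-WT, 5.13, 5.44, 5.15, 5.30 and 5.42 in WT-KO, and 5.82, 5.52, 5.48, 5.55 and 5.25 in KO-KO. All Lin28a-null libraries stood below all Lin28a-intact ones, and the Trim71 states overlapped. Pcdh1 fell by 0.93 (SE 0.116, adjusted p = 1.16e-05), a 1.9-fold difference, with Trim71 intact and by 0.72 (SE 0.116, adjusted p = 0.000136), a 1.64-fold difference, with Trim71 null. Pcdh19, the X-linked gene of an epilepsy syndrome, read 4.88, 4.86, 5.12 and 4.93 in WT-WT, 4.49, 4.40, 4.58 and 4.60 in KO-WT, 4.95, 4.92, 5.07, 4.67 and 4.76 in WT-KO, and 4.71, 4.70, 4.72, 4.69 and 4.77 in KO-KO. KO-WT lay below every other group, and WT-KO and KO-KO overlapped. Pcdh19 fell by 0.43 (SE 0.0972, adjusted p = 0.0143), a 1.35-fold difference, after Trim71 loss with Lin28a intact, while its difference with Lin28a null did not pass the test. The call was lost without WT-WT replicate 3 (-0.34, adjusted p = 0.067) or KO-WT replicate 2 (-0.37, adjusted p = 0.0512) and with the GC and length correction (-0.3, adjusted p = 0.0634). It was also lost on the days with all 4 genotypes (limma, -0.44, adjusted p = 0.0645) and with only the 2 genotypes compared (-0.44, adjusted p = 0.114). Clones E3 and C1 alone lost it too (-0.50, adjusted p = 0.161), and clones 1 and 1-4 alone gave a size of -0.29. Between KO-KO and WT-WT the fall of 0.23 (SE 0.09, adjusted p = 0.0471) was lost in 13 of 18 fits that each left out 1 library; the 5 that kept it lacked WT-WT replicate 2, KO-WT replicate 3 or 4 or WT-KO replicate 3 or 4. In the 13, the adjusted p ran from 0.051 to 0.212 and the difference from -0.26 to -0.15.

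Pcdh1 and Pcdh19 were also the 2 members whose annotated 3′ UTR holds a match to the let-7 seed. LIN28A is known for its action on let-7, so the mature sequences of a pair of family members are shown from RefSeq, 5′ to 3′, with the seed (bases 2 to 8) in capitals. The seed is the same in both.
let-7a-5p: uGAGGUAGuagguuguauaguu
let-7g-5p: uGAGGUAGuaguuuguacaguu
The match searched was CTACCTC, the reverse complement of that seed, on the transcript strand. In Pcdh19 the match lies in the 3′ UTR of the longest coding transcript and is in capitals in the stretch printed here. The whole printed stretch spans chrX:133586002-133586031 (GRCm38, minus strand).
Pcdh19 site: atttcctattctgtactgaataCTACCTCa
The share with a match was 2 of 18 members (11.1%), beside 1324 of 12503 tested genes with an annotated 3′ UTR (10.6%). The gamma protocadherin members share their last exons and have 3′ UTRs of the same length (1744 bases), without a match, and each was counted. After Lin28a loss, Pcdh1 fell as given above. Pcdh19, with a match as well, ranged from 4.86 to 5.12 in WT-WT and from 4.67 to 5.07 in WT-KO, and was not called. With Trim71 null Pcdh19 was higher without overlap in KO-KO (4.69 to 4.77) than in KO-WT (4.40 to 4.60). That difference was not called either, but it passed without the term for harvest day (limma, 0.20, adjusted p = 0.0285).

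The clustered protocadherins past the filter were all of the gamma cluster. Pcdhgc3, a C-type gamma gene used constitutively in neurons, ranged from 5.54 to 5.94 in WT-WT, 5.73 to 6.10 in KO-WT, 5.39 to 5.76 in WT-KO and 5.72 to 5.97 in KO-KO, and was not called. Pcdhga11 lay between 3.87 and 4.28 and was not called either. Pcdhga12 read 4.04, 4.08, 3.89 and 3.96 in WT-WT, 3.91, 3.93, 3.97 and 3.92 in KO-WT, 4.23, 4.15, 4.16, 4.15 and 4.21 in WT-KO, and 4.11, 4.26, 4.15, 4.30 and 4.22 in KO-KO. Its Lin28a-null libraries lay above its Lin28a-intact ones, and it was called higher after Lin28a loss in both Trim71 states, by 0.19 and 0.28. The first of these calls was lost without WT-WT replicate 3 or 4 or WT-KO replicate 1, 3 or 5, at adjusted p from 0.0509 to 0.153. It was also lost with the GC and length correction (0.16, adjusted p = 0.0818), on the days with all 4 genotypes (adjusted p = 0.0969), with only the 2 genotypes compared (adjusted p = 0.0704) and in each pair of clones alone (adjusted p = 0.337 and 0.2), and the second in clones 1 and 1-4 alone (adjusted p = 0.312). Pcdhga1 read between 2.92 and 3.13 in Lin28a-intact and between 3.08 and 3.48 in Lin28a-null libraries; it was called higher after Lin28a loss with Trim71 null, subject to the effect of the filter given above. The gamma genes share their last exons: each of the 4 shares up to 1971 annotated bases with the others, so how the counting split such reads bears on their values, and these are uncertain.

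No member passed the interaction test (limma), 3 had an unadjusted p under 0.05 (Cdh23, Fat1 and Pcdh19, the first and last named after their values were seen), and 15.1% of all genes had one; 3 genes of all tested (0.02%) passed after adjustment. For Fat2 the interaction was 0.10 (SE 0.131), for Celsr2 -0.09 (SE 0.129), for Cdh3 -0.11 (SE 0.111), for Cdh1 0.01 (SE 0.0539), for Cdh2 0.03 (SE 0.107), for Celsr1 0.10 (SE 0.118) and for Celsr3 -0.01 (SE 0.127). Between KO-KO and WT-WT, Fat2, Celsr2 and Fat1 differed by 0.86 (SE 0.0923), 0.66 (SE 0.091) and 0.59 (SE 0.084), and Cdh3 by 0.34 (SE 0.0783), all called. Celsr3 differed by 0.30 (SE 0.0893, adjusted p = 0.0128) and Cdh1 by 0.18 (SE 0.0379, adjusted p = 0.000972). Pcdh1 was lower by the same comparison, -0.69 (SE 0.116, adjusted p = 0.000183).

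Symbols of the superfamily that stayed below the filter were tested in a fit of all 21685 genes with no filter. After Lin28a loss with Trim71 intact, 1 of 35 was called higher and 10 lower, beside 17.1% and 19.1% of all genes; with Trim71 null 3 were called higher and 9 lower, beside 18.3% and 19.1%. Those lower in both comparisons included Cdh5 (VE-cadherin of endothelium), Cdh6, Dchs2, Pcdh12 and Pcdh18. Cdh6, a type II cadherin of kidney and neural crest, averaged 2.24 in WT-WT and KO-WT, 1.76 in WT-KO and 1.72 in KO-KO. Pcdh18 averaged 1.40, 1.38, 1.04 and 1.11 in the same order, and Dchs2 1.65, 1.68, 1.41 and 1.43. After Trim71 loss the same fit (limma) called 0 of the 35 with Lin28a intact and 1, Pcdhga2, higher with Lin28a null, beside 6.27% and 5.01% of all genes. At an unadjusted p under 0.05 the counts were 0 and 3 of 35, beside 23.2% and 18.7% of all genes. The largest difference of any of these genes was 0.52 in size. All of these levels lie under the filter, and fold sizes are not given for them.

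Genes that work with the members changed in both directions. Of 18 tested catenins and adherens junction partners, 2 rose and 1 fell after Trim71 loss in each Lin28a state, beside 11.2% and 8.38% of all genes. Nectin1, an immunoglobulin-type adhesion molecule of the same junctions, rose by 0.51 (SE 0.076, adjusted p = 0.000967) with Lin28a intact and by 0.51 (SE 0.0651, adjusted p = 0.000188) with Lin28a null. Jup (plakoglobin, or gamma-catenin) rose by 0.43 (SE 0.0495, adjusted p = 0.00013) and 0.25 (SE 0.0424, adjusted p = 0.00201). After Lin28a loss 4 rose and 6 fell with Trim71 intact, and 4 rose and 5 fell with Trim71 null, beside 42.4% and 42.8%. Ctnnd1 (p120-catenin), which keeps cadherins at the membrane, fell by 0.38 (SE 0.0546, adjusted p = 4.47e-05) with Trim71 intact, and Nectin2 fell by 0.38 (SE 0.0454, adjusted p = 8.08e-06) with Trim71 null.

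Desmosomal genes were also measured. Of 9 tested desmosomal and other cadherin-related genes, 3 rose and 3 fell after Lin28a loss with Trim71 intact, and 4 rose and 3 fell with Trim71 null, beside 42.4% and 42.8% of all genes. Dsc2, a desmosomal cadherin, went from a mean of 5.85 in WT-WT to 4.24 in WT-KO, a fall of 1.61 (SE 0.13, adjusted p = 1.05e-07). Dsp (desmoplakin), which ties desmosomes to keratin filaments, went from 7.87 to 6.41, a fall of 1.46 (SE 0.116, adjusted p = 9.1e-08). In Trim71-null cells the falls were 1.13 (SE 0.13) and 1.12 (SE 0.116). The summed simple epithelium markers, given above, were lower in the same libraries, while 3 and 4 genes of the present list rose. Between KO-KO and WT-WT, 5 rose and 4 fell, beside 45.6% of all genes, so the list did not move in 1 direction. A link to the epithelial markers was not tested.

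Of 11 tested transcription factors known to act on E-cadherin, 4 rose and 1 fell after Trim71 loss with Lin28a intact, and 2 rose and 1 fell with Lin28a null, beside 11.2% and 8.38% of all genes. Zeb1, a repressor of E-cadherin, fell by 0.62 (SE 0.0881, adjusted p = 0.000752) and by 0.33 (SE 0.0755, adjusted p = 0.0134); the second call was lost without WT-KO replicate 4 (-0.28, adjusted p = 0.0512). Klf4, a pluripotency factor that can activate E-cadherin, rose by 0.46 (SE 0.0687, adjusted p = 0.00102) and 0.38 (SE 0.0588, adjusted p = 0.000894). After Lin28a loss 5 rose and 2 fell with Trim71 intact, and 4 rose and 2 fell with Trim71 null, beside 42.4% and 42.8%. The E-cadherin repressor Snai1 fell by 0.88 (SE 0.107, adjusted p = 9.13e-06) and by 0.70 (SE 0.107, adjusted p = 7.68e-05), and its relative Snai3 rose by 0.69 (SE 0.0806) and 0.56 (SE 0.0806). Snai1 passed the filter through 8 libraries, all of them Lin28a-intact, so its fall, which is among those counted here, is in part fixed by the filter. Klf4 rose in the same comparisons, by 0.61 (SE 0.0636) and 0.53 (SE 0.0636).

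Among 23 tested Fat and Dchs partners and Hippo pathway genes, 3 rose and 9 fell after Lin28a loss with Trim71 intact, and 4 rose and 7 fell with Trim71 null, beside 42.4% and 42.8% of all genes. The kinase gene Lats2 fell by 0.96 (SE 0.0826, adjusted p = 1.96e-07) and the angiomotin gene Amotl2 by 0.94 (SE 0.0764, adjusted p = 1.11e-07) with Trim71 intact; both encode inhibitors of YAP. Vgll4, a competitor of YAP for TEAD, fell by 1.03 (SE 0.0691, adjusted p = 1.13e-08) with Trim71 null. After Trim71 loss no gene of this list rose and 2 fell with Lin28a intact, and 1 rose and 2 fell with Lin28a null, beside 11.2% and 8.38%. Mpdz, a scaffold of the crumbs complex, fell by 0.50 (SE 0.0933, adjusted p = 0.00541) and 0.34 (SE 0.0799, adjusted p = 0.0156), the second call being lost without WT-KO replicate 4 (-0.30, adjusted p = 0.0577). Of 17 planar polarity partners of the Celsr genes, 7 rose and 3 fell after Lin28a loss with Trim71 intact, and 6 rose and 4 fell with Trim71 null, beside 42.4% and 42.8%. Of the risers, Prickle2, a relative of Prickle1, rose by 0.52 (SE 0.0795, adjusted p = 8.15e-05) with Trim71 intact and the Wnt receptor gene Fzd3 by 0.55 (SE 0.0841, adjusted p = 8.06e-05) with Trim71 null. Fzd6, another Frizzled receptor gene, rose by 0.34 (SE 0.12, adjusted p = 0.03) and 0.52 (SE 0.12, adjusted p = 0.00244), the first call being lost without WT-WT replicate 1 or 2 or WT-KO replicate 1, 2 or 5 (adjusted p from 0.058 to 0.116). Of those that fell, Prickle1, a cytoplasmic polarity protein, fell by 0.79 (SE 0.0981, adjusted p = 1.1e-05) and 0.66 (SE 0.0981, adjusted p = 5.86e-05) and its membrane partner Vangl1 by 0.37 (SE 0.0519) and 0.36 (SE 0.0519).

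Of 21 factors known to act on the choice of clustered protocadherins, such as cohesin and DNA methyltransferases, 1 rose and 5 fell after Trim71 loss with Lin28a intact, beside 11.2% of all genes. None was called with Lin28a null (limma), beside 8.38% of all genes; 2 had an unadjusted p under 0.05, beside 22.8%. Nipbl, the cohesin loader, fell by 0.61 (SE 0.166, adjusted p = 0.03) and the cohesin subunit Smc3 by 0.52 (SE 0.15, adjusted p = 0.0378) with Lin28a intact; each call was lost in 6 of 18 fits that left out 1 library. Those were the fits without WT-WT replicate 2, 3 or 4 or KO-WT replicate 2 or 3 for both genes, without KO-WT replicate 1 for Nipbl and without WT-KO replicate 1 for Smc3, at adjusted p from 0.0507 to 0.161. After Lin28a loss 5 rose and 8 fell with Trim71 intact, and 8 rose and 3 fell with Trim71 null, beside 42.4% and 42.8%. The maintenance methyltransferase gene Dnmt1 rose by 0.36 (SE 0.0359, adjusted p = 9.67e-07) and 0.37 (SE 0.0359, adjusted p = 6.67e-07), while the de novo methyltransferase genes Dnmt3a and Dnmt3b fell by 0.59 (SE 0.105) and 0.52 (SE 0.101) with Trim71 null. The median differences of the 6 lists, in the order given here, were -0.071, -0.107, 0.166, -0.116, 0.107 and -0.042 after Lin28a loss in Trim71-intact cells, beside -0.008 over all genes. After Trim71 loss in Lin28a-intact cells they were -0.001, 0.035, 0.168, -0.029, 0.017 and -0.157, beside -0.005.

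**Figure D5:**
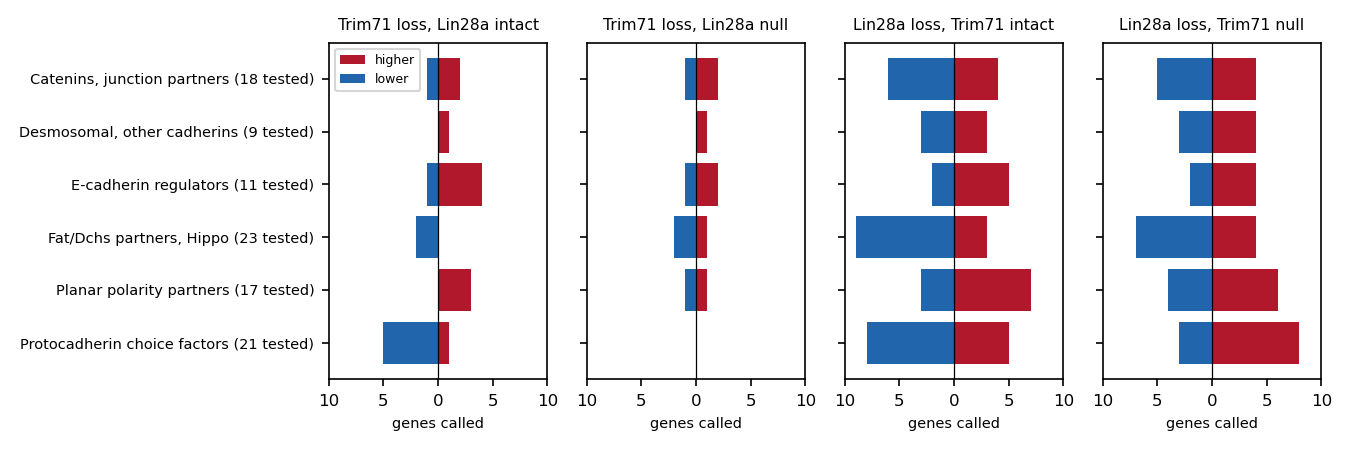
Bars give the number of genes of each partner list called higher (red, right) or lower (blue, left) at an adjusted p under 0.05 in 4 comparisons; the number tested stands beside each list. Of the 23 Fat and Dchs partners and Hippo genes, 9 were lower and 3 higher after Lin28a loss with Trim71 intact, and among the 21 protocadherin choice factors 8 were lower and 5 higher.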

How the data were processed

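The series holds mRNA sequencing of mouse ES cells. The submitters' processing notes name CASAVA 1.8, STAR and DESeq2; the genome build, the annotation and strand use are not given in the sources used here. The authors deposited normalised values of 21685 gene symbols in 19 libraries. These are on a log2 scale, which was inferred from the values (-0.7120 to 16.2989), and carry no read depth, so no counting interval is given. Differences between harvest days had been removed before deposit (a refitted day term was at most 1.7e-08), which can narrow the spread between libraries; day is a label. KO-WT replicate 5 differed by at most 1.5e-08 from the average of its group and was left out.

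Genes that reached log2 of 10 in 4 or more of 18 libraries were tested (14988 genes, 69.12%) with limma 3.58.1 in R 4.3.3 (eBayes with trend): 1 mean per genotype plus a term per day as the replicate block, 10 residual degrees of freedom, Benjamini-Hochberg adjustment over all tested genes, calls at adjusted p under 0.05. Pairing by day comes from the labels; it could not be checked in values from which day was removed. Lengths, GC content and 3′ UTRs came from GENCODE M21 (all 18 members matched), microRNA and promoter sequences from RefSeq.

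Named members were up to 5 higher and 5 lower called ones per comparison by size and 12 fixed symbols (Cdh1 to Cdh3, Fat1 to Fat4, Celsr1 to Celsr3, Dchs1, Dchs2), of which 8 were tested; Dchs1 and Dchs2 lay below the filter and Fat3 and Fat4 were not analysed here. Genes of partner lists were named from up to 2 higher and 2 lower called genes per partner list. The members and lists were chosen with earlier results of these data known. Alternatives were no day term, all 19 libraries, other scalings, filters and spread estimates, a GC and length correction, subsets of clones, days or genotypes, and leaving out each library. Counts without Pcdhga1 were added after seeing the data.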

Additional observations from a re-analysis of the deposited data

Results flagged for a closer look

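Each member was examined for a single library far from the others of its genotype (Dixon's ratio against its 95% critical value), in 72 groups of 4 or 5 libraries; chance flags about 1 in 20 groups. The test picked 2 groups, both of Pcdhgc3. In KO-WT, replicate 3 was the highest at 6.10 with the nearest library at 5.78, a gap of 0.876 of the group's range. In KO-KO, replicate 1 was the highest at 5.97 with the nearest library at 5.78, a gap of 0.765 of the range. The libraries were harvested on days 4 and 1. Pcdhgc3 shares its last exons with the other gamma protocadherin genes and was not called in any comparison.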

How the results depend on the processing

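The number of members called depended on the processing, most of all after Trim71 loss. With Lin28a intact it was 4 with day as the replicate block and 8 without it, 2 under a stricter filter (a value of 50 in place of 10, which left 10 members), 0 in clones E3 and C1 alone, 2 in clones 1 and 1-4 alone, 2 on days with all 4 genotypes and 0 with only the 2 genotypes compared. With Lin28a null it was 5, and 1, 2 and 3 in clones E3 and C1, clones 1 and 1-4, and days with all genotypes. After Lin28a loss with Trim71 intact it was 10, and 21 of 53 with no filter, 6 under the stricter filter and 4 in clones E3 and C1. With Trim71 null it was 10, and 22 with no filter and 5 in clones 1 and 1-4. Between KO-KO and WT-WT it was 14, and 23 with no filter, 8 under the stricter filter and 7 in clones E3 and C1. The subsets hold fewer libraries (5 and 2 residual degrees of freedom by clone pair). Leaving out 1 library gave 0 to 6, 3 to 6, 8 to 11, 10 to 11 and 11 to 14 calls in these 5 comparisons and 0 for the interaction. In the first, 0 was reached without WT-WT replicate 3 and 1 without WT-WT replicate 4 or KO-WT replicate 2, 3 or 4; in the second, 3 without WT-KO replicate 5 or KO-KO replicate 1 or 2. Of 653 values of named members under the other alternatives, 593 kept direction and side of the threshold, 49 lost the call, 11 gained it and none changed sign while called; leaving out libraries gave 955, 48 and 5 of 1008. The replicate block changed 3 of 56 such calls: without it Cdh2 and Celsr1 passed after Trim71 loss with Lin28a intact (adjusted p = 0.0498 and 0.0133) and Fat2 with Lin28a null (adjusted p = 0.0214). Outside these 56, Cdh4, Cdh15, Cdh23, Cdh24, Pcdh19 and Pcdhga1 also gained calls without it. The fit without day counts degrees of freedom that the removal of day effects had used. Scaling to the 75th percentile or a trimmed mean moved the median of all genes by at most 0.0198. The Pcdh19 fall between KO-KO and WT-WT was lost under both scalings (adjusted p = 0.0751 and 0.0663) and with no filter (0.0526), and the Cdh1 rise after Trim71 loss with Lin28a intact with no filter (0.0597). Of 74 partner gene calls that the naming rule takes from 4 comparisons, 32 and 27 were lost in the subsets of clones (E3 and C1, 1 and 1-4), 15 in at least 1 fit that left out a library, and 3 with the GC and length correction. Among members that correction changed calls of Cdh4, Cdh15, Cdh23, Celsr1, Celsr3, Fat1, Fat2, Pcdh19 and Pcdhga12: beside those given above, Cdh15 rose after Lin28a loss with Trim71 null (0.21, adjusted p = 0.0174), Cdh23 rose after Trim71 loss with Lin28a intact (0.33, adjusted p = 0.0321), and between KO-KO and WT-WT the calls of Cdh23 (0.17, adjusted p = 0.0935) and Pcdhga12 (0.16, adjusted p = 0.0738) were lost. Not counting Pcdhga1 left 4, 5, 10, 9 and 13 calls in the 5 comparisons. Weakly expressed members lie near the filter, and without read depths the precision of their values cannot be given.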
